A study of Homo sapiens with 6 samples.

Results

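Matrix metalloproteinases (MMPs) and their tissue inhibitors (TIMPs) were followed as 8 protease genes and 2 inhibitor genes, listed by symbol (MMP1, MMP2, MMP3, MMP7, MMP9, MMP10, MMP13, MMP14, TIMP1 and TIMP2). All 10 were found among the 38100 genes of the series. The samples were HK2 cells, a human epithelial cell line from the kidney proximal tubule, labelled WT. All 6 titles name HK2, although the cell line field counts up from HK2 to HK7 over the samples. One group carried an empty control adenovirus (AdCtrl) and the other an adenovirus that overexpresses SIRT4 (AdSIRT4), with 3 samples in each and TGF-β1 given to all 6. No group without TGF-β1 was analysed here, so every value describes stimulated cells. In the study's checklist, n stands for technical replicates in cell experiments. If this holds for the sequenced samples, the SDs and p-values measure technical spread.

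MMPs are zinc-dependent proteases that cut extracellular matrix and cell surface proteins. Most are secreted as inactive proenzymes and become active once a propeptide is removed, whereas MMP14 sits in the plasma membrane and, together with TIMP2, activates proMMP2. TIMPs bind the active site and block it. In the injured kidney this system takes part in matrix turnover, and MMP7 is known as a product of injured tubular epithelium.

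The deposited counts summed to between 41537353 and 85684748 per sample. SIRT4 lay between 0.573 and 1.11 CPM (counts scaled to library size with TMM factors) in AdCtrl samples and between 51.2 and 92.7 CPM in AdSIRT4 samples. Of 7 tubular epithelial markers, 6 had a mean of at least 1 CPM, and the exception was CDH1. Of 6 proximal tubule markers only GGT1 did, so the transport genes of that segment were low. The corresponding counts were 2 of 5 for fibroblasts (COL1A1 and LUM), 0 of 4 for endothelium and 2 of 5 for leukocytes (CD68 and CD14, with CD3E at 0 in all samples). Summed over each list, AdCtrl and AdSIRT4 samples did not overlap for the proximal tubule markers (227.5 to 248.6 and 210.8 to 220.7 CPM). Nor did they for the fibroblast markers (41.7 to 45.1 and 39.9 to 40.8 CPM). Among single tested genes, 19.4% did not overlap. GGT1 made up most of the proximal tubule sum, with means of 237.3 and 213.6 CPM. Of the fibroblast markers, COL1A1 had means of 25.8 and 21.6 CPM, while LUM went the other way with 16.1 and 17.8 CPM. The part of these markers in the results was not tested. The library AdSIRT4 replicate 1 stood apart. The Spearman correlation between its deviation from the group mean and gene length was -0.70 across 14692 genes, against 0.62 and 0.64 in AdSIRT4 replicates 2 and 3, whose deviations are taken from the same mean, and -0.22 to 0.23 in AdCtrl samples. Where leaving this library out turned a direction, ended or made a call, or moved a value by over 1.5 times, the value without it is given. In bulk RNA, more cells that express a gene and more RNA per cell cannot be told apart.

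On the FPKM scale, which divides by gene length, the 10 genes differed widely. Where a gene has 3 values for a group, they stand in the order of the replicates. MMP7, known as matrilysin, led with 471.7 ± 24.4 FPKM (SD, n = 3) in AdCtrl cells and 579.0 ± 84.2 FPKM in AdSIRT4 cells. TIMP1, a broad inhibitor of soluble MMPs, followed with 200.4 ± 9.19 and 216.1 ± 59.2 FPKM. TIMP2 reached 71.4 ± 2.53 and 73.0 ± 4.09 FPKM, and MMP14 44.6 ± 1.87 and 41.1 ± 0.765 FPKM. These 4 genes lay above 96% of all genes in the table in both groups.

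The remaining MMPs were far lower on the same scale. MMP1, the interstitial collagenase, had 2.08 ± 0.296 FPKM in AdCtrl cells and 3.41 ± 0.861 FPKM in AdSIRT4 cells. MMP9, a gelatinase, had 0.245 ± 0.0217 and 0.236 ± 0.0393 FPKM. The ranges of neighbouring genes did not overlap from MMP7 down to MMP9, so this order was the same in both groups. Below MMP9 the ranges of MMP10, MMP13 and MMP3 touched in AdCtrl cells, and MMP13 and MMP10 changed places in AdSIRT4 cells with overlapping ranges. MMP7 alone made up 90.9 ± 0.161% of the summed FPKM of the 8 MMPs in AdCtrl cells and 92.7 ± 1.07% in AdSIRT4 cells.

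**Figure D1:**
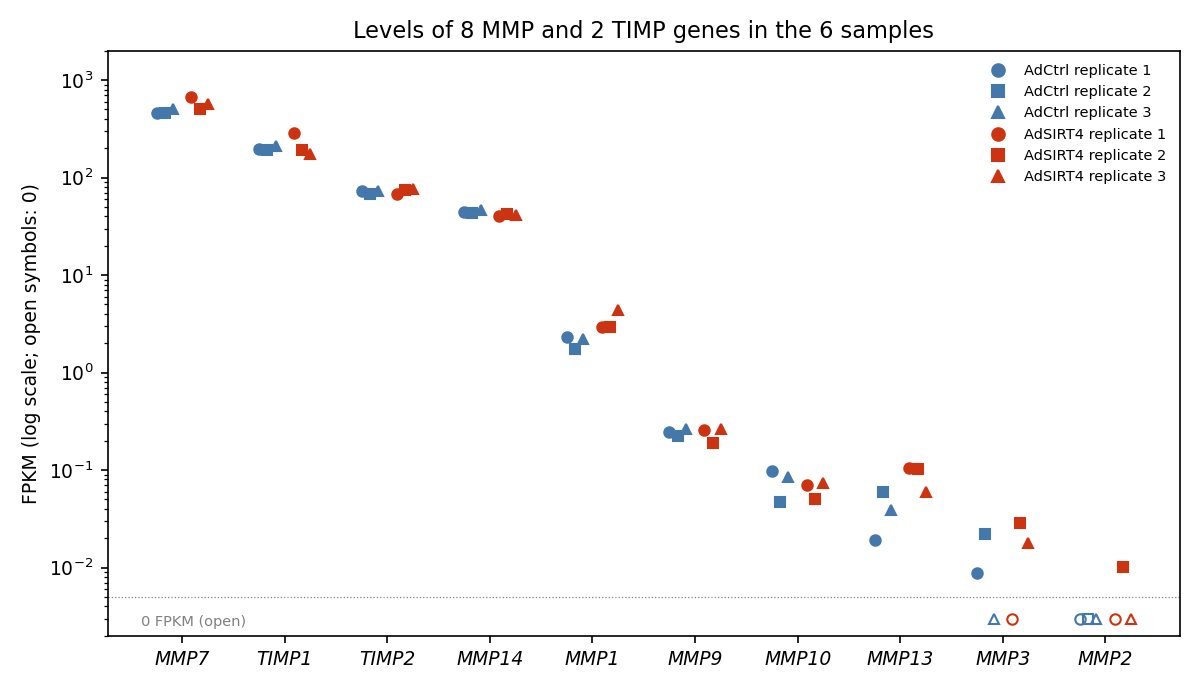
FPKM of the 10 genes in each of the 6 samples on a log axis, ordered by the AdCtrl mean, with blue symbols for AdCtrl, red for AdSIRT4 and open symbols for a value of 0. MMP7, TIMP1, TIMP2 and MMP14 lie above 40 FPKM in every sample, MMP1 between 1.74 and 4.41 FPKM, and the other 5 genes below 0.3 FPKM.

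The genes fall at few sites in the genome (GRCh38). MMP7, MMP10, MMP1, MMP3 and MMP13 stand in this order within a run of 9 MMP genes on chromosome 11, from 102520508 to 102955732, all on the minus strand. MMP7 runs from 102520508 to 102530747 and MMP1 from 102789919 to 102798160. Although neighbours in 435.2 kb, MMP7 and MMP3 were the highest and nearly the lowest of the 8 proteases. MMP2 lies on chromosome 16 (55478830 to 55506691), MMP9 on chromosome 20 (46008908 to 46016561), MMP14 on chromosome 14 (22836585 to 22847758), TIMP1 on chromosome X (47582436 to 47586789) and TIMP2 on chromosome 17 (78852977 to 78925387). The library protocol as described does not mark the strand. Reads on the 430 of 2336 exonic MMP9 bases that antisense SLC12A5-AS1 shares in the GENCODE v29 annotation, and on the 150 of 1970 exonic MMP1 bases shared with WTAPP1, cannot be assigned to one gene. The same holds for 367 of 4075 exonic TIMP2 bases shared with antisense AC022966.1 and 174 of 4738 MMP2 bases shared with AC007336.3. SLC12A5-AS1 itself had 150 to 271 counts per sample against 26 to 56 for MMP9, so the MMP9 values are uncertain.

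Promoter sequences from RefSeq (GRCh38.p14) were at hand for 4 of the 10 genes. They are shown because they set the most abundant protease, MMP7, beside a barely expressed gene of the same cluster, MMP10, and beside MMP14 and TIMP1. Each line holds the 150 bases before the transcription start, 5′ to 3′, with capitals for matches on either strand to the letters TGANTCA (AP-1), AGGAAG (ETS, PEA3), TATAAA (the box named after it) and GGGCGG (Sp1).
MMP7, chr11:102530748-102530897, minus strand: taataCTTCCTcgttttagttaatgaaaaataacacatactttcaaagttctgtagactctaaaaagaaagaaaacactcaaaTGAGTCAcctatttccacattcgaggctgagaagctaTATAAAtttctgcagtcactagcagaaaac
MMP10, chr11:102780629-102780778, minus strand: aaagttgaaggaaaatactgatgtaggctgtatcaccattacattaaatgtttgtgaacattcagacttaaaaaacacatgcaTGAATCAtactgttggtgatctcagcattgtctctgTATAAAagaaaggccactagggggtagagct
MMP14, chr14:22836435-22836584, plus strand: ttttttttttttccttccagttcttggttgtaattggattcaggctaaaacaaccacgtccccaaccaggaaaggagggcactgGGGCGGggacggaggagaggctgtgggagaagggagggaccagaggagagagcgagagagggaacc
TIMP1, chrX:47582286-47582435, plus strand: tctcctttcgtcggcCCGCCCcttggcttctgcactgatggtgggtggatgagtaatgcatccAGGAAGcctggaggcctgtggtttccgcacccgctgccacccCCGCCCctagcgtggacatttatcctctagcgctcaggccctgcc

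MMP7 and MMP10 held the AP-1 and TATA letters at like positions, but the ETS letters occurred at -169 and -145 in MMP7 and nowhere in the 250 bases of MMP10. The AP-1 letters began at position -67 from the start in both, and the TATA letters at -30 in MMP7 and -31 in MMP10. MMP14 and TIMP1 held neither the AP-1 nor the TATA letters in the 250 bases before the start. The Sp1 letters stood at -66 in MMP14 and at -135 and -45 in TIMP1. Only these exact letters were searched, so a site spelled otherwise would be missed. Among 35116 promoters the AP-1 letters occurred within 250 bases in 6.57%, the TATA letters in 10.7%, the ETS letters in 28.7% and the Sp1 letters in 42.6%. These matches are descriptions of letters, and AP-1 and TATA letters stood before both a gene at 471.7 FPKM and one at 0.0766 FPKM (AdCtrl means of MMP7 and MMP10).

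To ask whether SIRT4 overexpression changed these genes under TGF-β1, edgeR's quasi-likelihood test was run between AdSIRT4 and AdCtrl samples over the 17720 genes with enough counts. Of the 10 genes, 6 entered the test (MMP1, MMP7, MMP9, MMP14, TIMP1 and TIMP2). None of the 6 had an adjusted p under 0.05, a threshold that 0.0113% of all genes passed. A block for the replicate number gave 0 of 6 and 0.00564%. At an unadjusted p under 0.05 there was 1 of 6, MMP1, where 7.93% of all genes passed (7.2% with the block, again MMP1), and MMP1 also lay under 0.01, with 1.91% of all genes. DESeq2 also called 0 of 6 at the adjusted threshold, where 1.16% of all genes passed, and 2 of 6 at an unadjusted p under 0.05 (MMP1 and MMP7, with a background of 9.25%). With the length trend removed 0 of 6 were called (0.0677% of all genes) and 2 had an unadjusted p under 0.05 (MMP1 and MMP7, background 14.1%). Without AdSIRT4 replicate 1, where MMP13 also entered the test, that number was 4 of 7 (MMP1, MMP7, MMP14 and TIMP1) against 24.3% of all genes, and in limma voom with sample quality weights it was 2 (MMP1 and MMP7) against 26.9%. The groups did not overlap for 4 of 6 genes, 3 higher and 1 lower in AdSIRT4 cells, against 19.4% of all tested genes (9.66% higher and 9.77% lower). The median log2 fold change of the 6 was 0.11, where that of all tested genes was 0.021. Without AdSIRT4 replicate 1 the median of 7 tested was 0.063 and that of all tested genes -0.0028.

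MMP1 showed the largest difference among the 6. MMP1, which opens the triple helix of fibrillar collagens, stood at 5.10, 3.98 and 4.73 CPM with the control virus and at 7.03, 6.48 and 9.68 CPM with AdSIRT4. The groups did not overlap, and AdSIRT4 replicate 3 was the highest. Mean levels were 4.602 ± 0.574 CPM for AdCtrl and 7.73 ± 1.71 CPM for AdSIRT4 (SD, n = 3), a log2 difference of 0.75 (1.68-fold) with a standard error of 0.191, a 95% interval from 0.30 to 1.20 and an adjusted p of 0.494 from edgeR (unadjusted p = 0.00583 from the same test, rank 198 of the genes tested). The two-sided exact permutation test gave p = 0.1, the smallest that 3 samples against 3 allow.

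The direction of MMP1 was the same in all 18 alternative fits, with a log2 fold change from 0.51 on the log2(FPKM + 1) scale to 0.87 without AdSIRT4 replicate 2. Its adjusted p ran from 0.0238 to 0.971. It was under 0.05 in 2 of them, which were edgeR without AdSIRT4 replicate 1 (log2 fold change 0.80, adjusted p = 0.0238, with 6.71% of all genes called) and limma voom with sample quality weights (0.65, adjusted p = 0.0358, with 8.74% of all genes called). DESeq2 gave an adjusted p of 0.0534. Over the edgeR fits that left out 1 sample, the log2 fold change of MMP1 ran from 0.55 to 0.87, the lowest without AdSIRT4 replicate 3.

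MMP13, the other collagenase of the list, was counted in few reads. AdCtrl samples held 4, 8 and 6 counts of it, and AdSIRT4 samples 14, 28 and 15 counts. After scaling these were 0.0740, 0.188 and 0.117 CPM against 0.359, 0.325 and 0.185 CPM. The groups overlapped between AdCtrl replicate 2 and AdSIRT4 replicate 3 (two-sided exact permutation test, p = 0.2). MMP13 missed the filter on low counts. With all genes of at least 1 count in the test, it differed by 1.19 on the log2 scale (standard error 0.529), at an adjusted p of 0.738 from edgeR (0.261 to 0.971 over the 9 alternatives that could test it). The unadjusted p of MMP13 was 0.0482 in that edgeR fit and ran from 0.0283 to 0.138 over the 9 alternatives. In the fits with a sample left out, MMP13 passed the count filter mainly through the AdSIRT4 samples, where it is high. These p-values therefore lend no support to a difference. The collagenases MMP1 and MMP13 together summed to 2.12 ± 0.277 FPKM in AdCtrl cells and 3.50 ± 0.836 FPKM in AdSIRT4 cells.

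**Figure D2:**
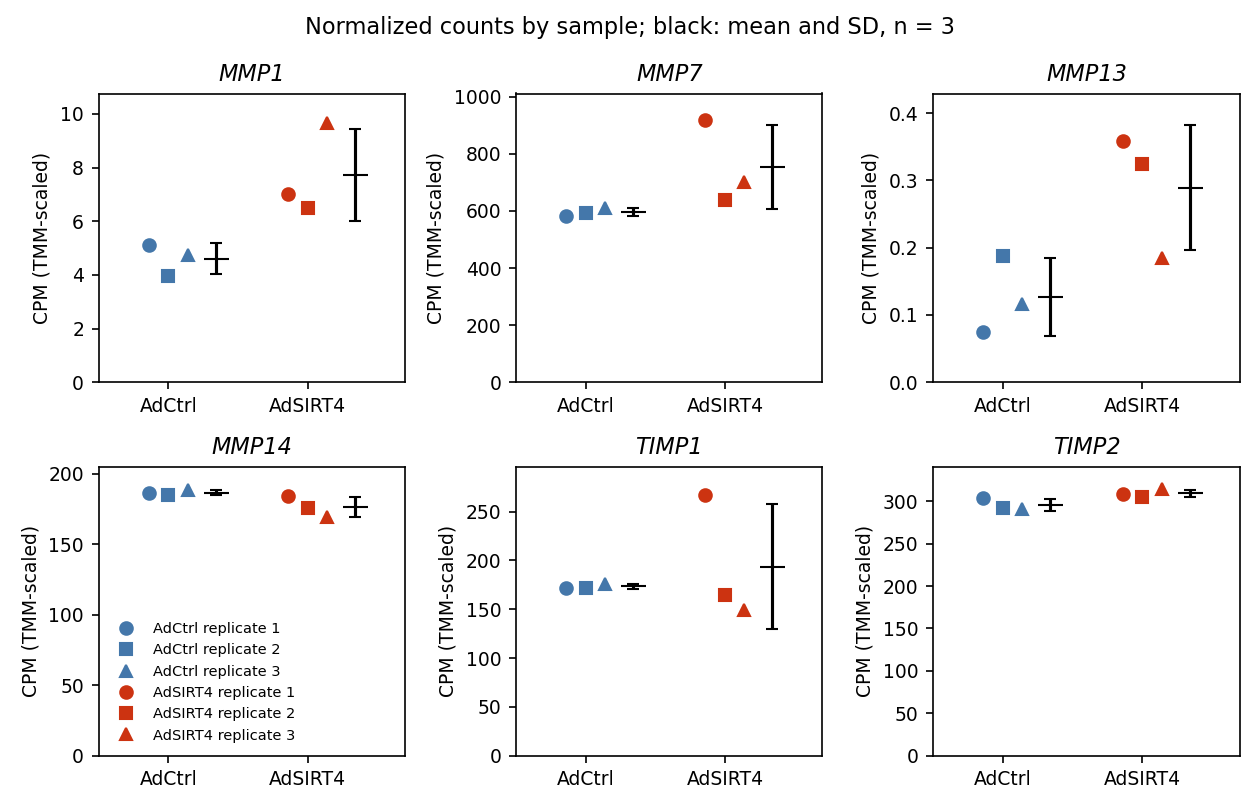
TMM-scaled CPM of 6 genes in each sample (points), with the mean and SD of each group in black, on linear axes that start at 0. MMP1 is higher in all 3 AdSIRT4 samples (6.48 to 9.68 CPM) than in any AdCtrl sample (3.98 to 5.10 CPM), and TIMP1 and MMP7 are highest in AdSIRT4 replicate 1.

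MMP7, which cleaves a wide range of matrix and surface proteins, stood at 583.6, 593.2 and 610.2 CPM with AdCtrl. With AdSIRT4 it stood at 919.8, 637.5 and 703.0 CPM. The groups did not overlap, with AdSIRT4 replicate 2 just above the highest AdCtrl sample and replicate 1 far above it. The log2 difference in MMP7 was 0.34 (1.27-fold), its standard error 0.157, its 95% interval -0.033 to 0.71 and its adjusted p in edgeR 0.668. The exact permutation test gave p = 0.1.

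The size of the MMP7 difference depended on AdSIRT4 replicate 1. Without that library it was 0.17 on the log2 scale (edgeR, adjusted p = 0.101). For genes of the length of MMP7 (1.28 kb in these tables), the length trend lifted AdSIRT4 replicate 1 by 0.46 on the log2 scale, relative to the mean of all samples. With each library's trend removed, the log2 fold change of MMP7 was 0.21 (standard error 0.0846, adjusted p = 0.333 from edgeR). It was above 0 in all 18 alternatives, from 0.15 to 0.45, and the adjusted p ran from 0.101 to 0.971.

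MMP14, the membrane-type MMP, differed less and in the other direction. AdCtrl samples held 186.1, 185.3 and 188.7 CPM of it, and AdSIRT4 samples 184.2, 175.9 and 169.4 CPM. The AdSIRT4 values were the 3 lowest, although AdSIRT4 replicate 1 nearly met them. The log2 fold change was -0.081 (standard error 0.0885, 95% interval from -0.29 to 0.13, adjusted p = 0.796 from edgeR), and it was below 0 in all 18 alternatives, from -0.12 to -0.052. The adjusted p ran from 0.181 to 0.971.

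The gelatinases and stromelysins had low counts, with MMP9 at 26 to 56 per sample and the others lower. AdCtrl samples held 0.666, 0.612 and 0.681 CPM of MMP9, and AdSIRT4 samples 0.744, 0.510 and 0.689 CPM. The groups overlapped, and the log2 fold change of MMP9 was -0.026 (standard error 0.252, 95% interval from -0.62 to 0.57, adjusted p = 0.974 from edgeR, 0.538 to 0.997 over 17 alternatives). Without AdSIRT4 replicate 1 it was -0.13 (edgeR, adjusted p = 0.824). MMP10, stromelysin-2, had 11, 5 and 9 counts in AdCtrl samples and 6, 9 and 12 counts in AdSIRT4 samples, with overlapping groups (exact permutation test, p = 0.4).

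MMP3, stromelysin-1, had 1, 2 and 0 counts in AdCtrl samples and 0, 6 and 3 in AdSIRT4 samples. MMP2, gelatinase A, had 0 counts in 5 samples and 4 counts in AdSIRT4 replicate 2. Where none was seen, 3 counts remain possible from counting error alone, or 0.0369 to 0.0769 CPM over the libraries without a count of MMP2. MMP14 and TIMP2, which activate proMMP2 on the cell surface, were thus abundant as transcripts in samples in which MMP2 was at or near the floor. No fold change is given for MMP2 and MMP3.

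The inhibitors differed from each other. TIMP1 stood at 171.7, 172.3 and 176.3 CPM with AdCtrl and at 267.0, 164.7 and 149.5 CPM with AdSIRT4. AdSIRT4 replicate 1 lay above all AdCtrl samples and the other AdSIRT4 replicates lay below them. The log2 fold change of TIMP1 was 0.16 (standard error 0.217, 95% interval from -0.36 to 0.67, adjusted p = 0.832 from edgeR).

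The sign of TIMP1 turned without AdSIRT4 replicate 1, to -0.15 (standard error 0.0569, adjusted p = 0.142 from edgeR). It was -0.025 with the length trend removed. TIMP1 has the shortest length of the 6 tested genes (0.875 kb), and the length trend of AdSIRT4 replicate 1 was 0.56 on the log2 scale at that length. Over the 18 alternatives TIMP1 was above 0 in 14 and below 0 in 4, with an adjusted p from 0.142 to 0.971, so these data give no direction for TIMP1.

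TIMP2 had a narrow spread. AdCtrl samples held 304.3, 292.3 and 290.3 CPM of it, and AdSIRT4 samples 308.4, 305.6 and 313.9 CPM. The AdSIRT4 values were just higher in CPM, while on the FPKM scale the groups overlapped. The log2 fold change of TIMP2 was 0.065 (standard error 0.0925, adjusted p = 0.837 from edgeR), with a 95% interval from -0.15 to 0.28. In the 18 alternatives it ran from 0.031 to 0.087, with an adjusted p from 0.484 to 0.971.

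**Figure D3:**
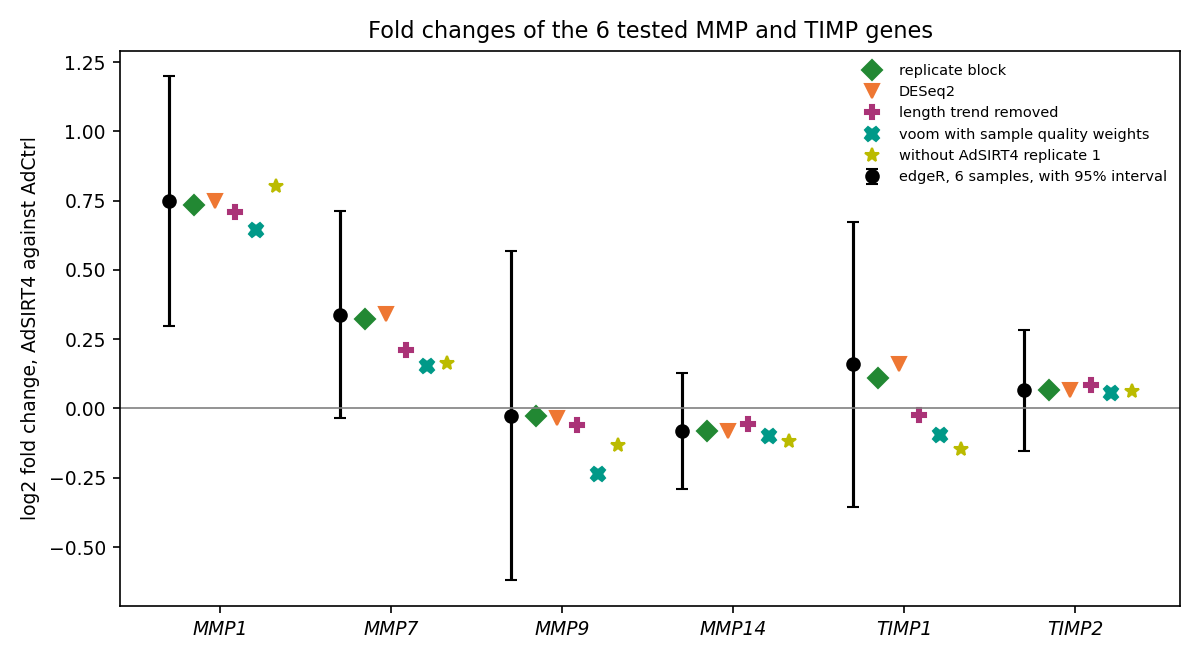
Log2 fold changes of the 6 tested genes, AdSIRT4 against AdCtrl, in edgeR with its 95% interval (black) and in 5 alternative fits (coloured symbols). MMP1 stays between 0.65 and 0.80 in the 6 fits shown, and TIMP1 lies below 0 with the length trend removed (-0.025), in voom (-0.098) and without AdSIRT4 replicate 1 (-0.15).

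Ratios within one sample do not depend on library size. MMP7 to TIMP1, both short genes, gave FPKM ratios of 2.33, 2.36 and 2.37 with AdCtrl and of 2.36, 2.65 and 3.22 with AdSIRT4. AdSIRT4 replicate 1 lay within the AdCtrl range and the other AdSIRT4 replicates lay above it. The 2 TIMPs summed to 0.524 ± 0.00910 of the summed FPKM of the 8 MMPs in AdCtrl cells and to 0.462 ± 0.0431 in AdSIRT4 cells. This ratio was 0.534, 0.523 and 0.516 in AdCtrl samples and 0.494, 0.480 and 0.413 in AdSIRT4 samples, so the groups did not overlap. Because MMP7 supplies most of the MMP sum, this is mainly a ratio of TIMPs to MMP7. With MMP7 left out, the ratio was 5.78 ± 0.0283 in AdCtrl cells and 6.46 ± 1.38 in AdSIRT4 cells, and the groups overlapped. The AdSIRT4 samples had 8.04, 5.83 and 5.50, and the mean without AdSIRT4 replicate 1 was 5.66, below that of AdCtrl. MMP14 to TIMP2, genes of nearly equal length, gave 0.604, 0.627 and 0.642 in AdCtrl samples and 0.590, 0.569 and 0.533 in AdSIRT4 samples. This ratio was lower in every AdSIRT4 sample. MMP7 to MMP14, genes of unlike length (1.28 and 4.23 kb), gave 10.6 ± 0.166 in AdCtrl cells and 14.1 ± 2.29 in AdSIRT4 cells. AdSIRT4 replicate 1 was the highest at 16.6, and the mean without it was 12.9. The length trend of that library was 0.46 at MMP7 and -0.051 at MMP14 on the log2 scale. These ratios were chosen from the members and are given without a test.

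**Figure D4:**
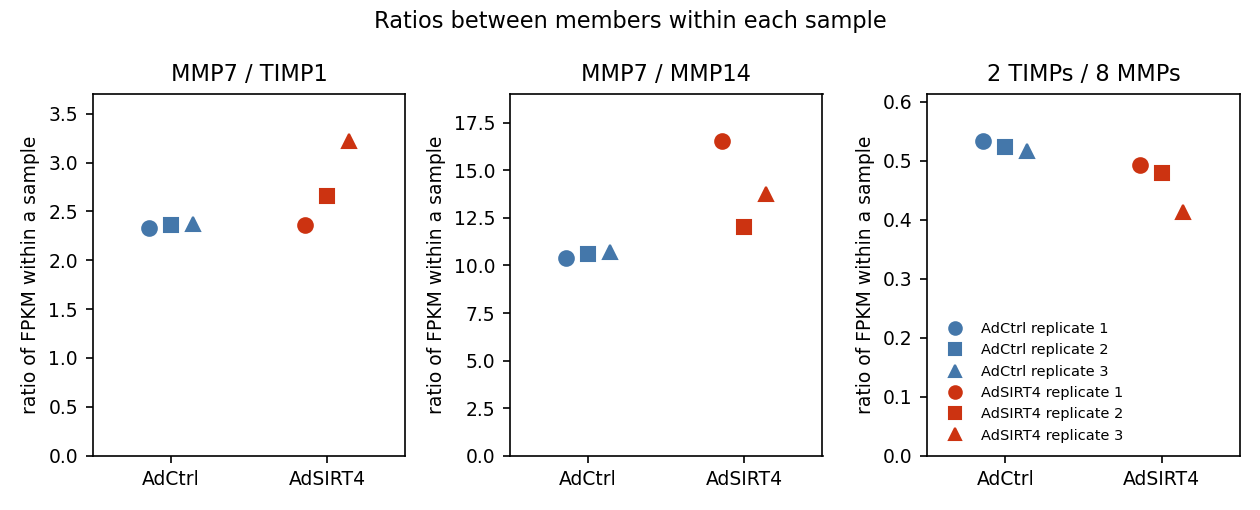
Ratios of FPKM within each sample, on linear axes that start at 0, for MMP7 to TIMP1, MMP7 to MMP14 and the sum of the 2 TIMPs to the sum of the 8 MMPs. The AdCtrl samples lie close together in each panel, and AdSIRT4 replicate 1 meets them for MMP7 to TIMP1 (2.36) but is the farthest away for MMP7 to MMP14 (16.6).

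Around these 10 genes, 3 lists of the pathway were read. They were chosen with earlier results of these data known, so their shares beside those of all genes do not test the pathway. Of 18 further family members (other MMPs, TIMP3, TIMP4 and the membrane-anchored MMP inhibitor RECK), 10 had enough counts for the test. None passed an adjusted p of 0.05 in edgeR, and 1 of 10, MMP28, was lower at an unadjusted p under 0.05, where 3.5% of all genes were lower at that threshold. MMP28, known as epilysin, had 20, 18 and 16 counts in AdCtrl samples and 10, 15 and 12 counts in AdSIRT4 samples, or -0.97 on the log2 scale (standard error 0.347, edgeR adjusted p = 0.593). It passed the count filter through the AdCtrl samples, where it is high (means of 0.368 and 0.193 CPM). Its place below the unadjusted threshold therefore lends no support to a difference. MMP15, a further membrane-type MMP, had 19.4 ± 0.839 FPKM in AdCtrl cells and 20.8 ± 1.96 FPKM in AdSIRT4 cells, with a log2 fold change of 0.13 (adjusted p = 0.731 from edgeR). MMP16, another of this type, had 12.3 ± 0.667 and 9.88 ± 3.32 CPM and a log2 fold change of -0.30 (adjusted p = 0.761 from edgeR). AdSIRT4 replicate 1 was lowest at 6.08 CPM, and without it the log2 fold change of MMP16 was -0.063 (edgeR, adjusted p = 0.696). TIMP3 and MMP27 had 0 counts in every sample. The median log2 fold change of the 10 was 0.038, or 0.0065 without AdSIRT4 replicate 1.

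Of 25 genes that activate MMPs or control them, 20 were tested and 0 passed the adjusted threshold in edgeR. At an unadjusted p under 0.05, 5 were higher (4.43% of all genes) and 1 lower (3.5% of all genes), and the median log2 fold change of the 20 was 0.057. LCN2, which forms a complex with MMP9, had 362.9 ± 34.02 CPM in AdCtrl and 560.9 ± 78.7 CPM in AdSIRT4 cells (log2 fold change 0.63, adjusted p = 0.494 from edgeR). The urokinase receptor PLAUR had a log2 fold change of 0.39, the matricellular protein THBS1 0.35 and the matrix proteoglycan SPOCK2 0.62 (edgeR adjusted p = 0.545, 0.600 and 0.612). SPOCK1, a related proteoglycan, had -0.41 (adjusted p = 0.612), with 60.3 CPM in AdSIRT4 replicate 1, the lowest of its samples, and -0.26 without that library. The urokinase gene PLAU, chosen after its values were seen, had 674.7 ± 40.7 and 670.9 ± 63.7 CPM. Without AdSIRT4 replicate 1, 5 of the 20 passed the adjusted threshold as higher (among them CD44, LCN2, PLAUR and THBS1) and 2 as lower (HPN and SPOCK1), where 6.71% of all genes passed in either direction, and the median of the 20 was 0.088.

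Of 25 substrates, 21 were tested and 0 passed the adjusted threshold in edgeR. At an unadjusted p under 0.05, 3 were higher (4.43% of all genes) and 0 lower, and the median log2 fold change of the 21 was -0.11. COL7A1, the anchoring fibril collagen, had 332.2 ± 13.6 and 460.2 ± 28.7 CPM (0.47 on the log2 scale, adjusted p = 0.494 from edgeR). CCN2, listed here as an MMP substrate, had a log2 fold change of 0.73 and the chemokine CXCL8 one of 0.62, with the same adjusted p. Among the fibrillar collagen substrates of MMP1, COL1A1 had 25.8 ± 0.879 and 21.6 ± 3.52 CPM, lowest in AdSIRT4 replicate 1 at 17.7 CPM. Its log2 fold change was -0.25 (adjusted p = 0.70 from edgeR), or -0.14 without that library (edgeR, adjusted p = 0.26). COL1A2 had a count above 0 in 1 AdSIRT4 sample and COL3A1 had 0 counts in all samples. Without AdSIRT4 replicate 1, 6 of the 21 passed as higher (among them CCN2, COL7A1, CXCL8, FN1 and LAMB3) and 1 as lower (SPP1), again against 6.71% of all genes. The median of the 21 turned to 0.024. Since this list was chosen with earlier results known, its share is no test.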

How the data were processed

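HK2 cells with AdCtrl or AdSIRT4 and TGF-β1 were sequenced as poly(A) RNA, 3 samples per group, grouped by their titles. The submitters' processing notes name fastp 0.21.0, HISAT2 2.1.0, StringTie 2.1.5, DESeq2 1.30.1 and hg38, without roles. The authors deposited counts per gene without normalization and a second table taken here as FPKM, which its header leaves unnamed and its values fit. Every sample column was used.

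Counts were fitted with edgeR 4.0.16 in R 4.3.3 (filterByExpr with a minimum count of 10, TMM, robust quasi-likelihood test, Benjamini-Hochberg adjustment over all 17720 genes at 0.05). Intervals use a level of 0.95. Alternatives used DESeq2 1.42.0, limma 3.58.1, log2(FPKM + 1), log2(FPKM + 0.1), other filters, removal of each library's length trend, and each sample left out in turn. Deviations of samples with the same replicate number correlated across genes at 0.19, 0.16 and 0.20, and the others between -0.20 and 0.035. Correlations this small do not settle whether the numbers pair the samples. A replicate block was therefore fitted only as an alternative. No 2 samples of the same group were copies (chi-square of at least 10.1 per gene for each pair within a group). Pairs across groups were not compared. The fits were tested on simulated data.

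The 10 genes, the lists and the rule for named genes (the 10 genes, SIRT4, and list genes with an unadjusted p under 0.05 or, where fewer than 3 passed, the 3 smallest p) were chosen with earlier results of these data known. Some genes of the lists count in the totals but are not reported here by name. Python 3.11.15, pandas 2.3.3 and matplotlib 3.10.9 were used for tables and figures.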

Additional observations from a re-analysis of the deposited data

How the results depend on the processing

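With 3 samples per group and 1 library that stands apart, precision was limited, and MMP2, MMP3, MMP10 and MMP13 rested on counts of at most 28 per library. The number of genes called over all genes was 2 in edgeR with all samples. It was 206 in DESeq2 (124 higher, 82 lower), 1549 in voom with sample quality weights (819 higher, 730 lower), 12 with the length trend removed, 1 with the replicate block, 5 with all genes of at least 1 count, 4 with at least 10 counts in every sample, 0 in limma on log2(FPKM + 1), also with the replicate block, 1 at a pseudocount of 0.1 and 5 among genes whose mean FPKM reached 1. Leaving out 1 sample gave 0 to 1227 calls, the most without AdSIRT4 replicate 1 (617 higher, 610 lower). The cause was not tested.

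Of the MMP and TIMP genes, 0 were called with all samples, 1 in voom with sample quality weights and 0 to 1 with a sample left out, and the 1 gene was MMP1 both times. The replicate block changed no call of these genes, with log2 fold changes of 0.74 for MMP1, 0.32 for MMP7 and 0.11 for TIMP1. Signs turned for MMP9, to 0.0074 without AdCtrl replicate 3 and 0.13 without AdSIRT4 replicate 2 (-0.13 to 0.13 with a sample left out). They turned for TIMP1, to -0.025 with the length trend removed, -0.024 with the trend removed and the replicate block, -0.098 in voom and -0.15 without AdSIRT4 replicate 1. The other 99 of 107 comparisons of a gene with an alternative kept their direction and their side of the threshold.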

Other observations

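MMP21 and PCSK5, the latter a proprotein convertase, were named after their values were seen. MMP21 had 0, 3 and 2 counts in AdCtrl samples and 5, 9 and 6 counts in AdSIRT4 samples. In CPM its groups lay just apart (at most 0.0706 against at least 0.0738). Of all tested genes, 19.4% did not overlap in either direction. MMP21 had too few counts for the test. PCSK5 had 0, 2 and 0 counts in AdCtrl samples and 2, 20 and 12 counts in AdSIRT4 samples. It did not overlap in CPM (at most 0.0471 against at least 0.0513) and was also below the filter.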
